A study of Homo sapiens with 3 samples.

Results

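The genes described here are 10 protein-coding genes that ERK signalling induces and whose products feed back on it or carry it on: the MAP kinase phosphatases DUSP4, DUSP5 and DUSP6, the Sprouty genes SPRY1, SPRY2 and SPRY4, the Sprouty-related genes SPRED1 and SPRED2, and the PEA3-type ETS factors ETV4 and ETV5. They were chosen by name and found by Ensembl identifier, as 10 of the 57992 genes in the deposited count table. All 10 had a mean level of 1 CPM or more, CPM being counts scaled to a common library size, as did 16600 genes in all. RWPE1 is an immortalized human prostate epithelial cell line of non-malignant origin. Bulk RNA was sequenced from 3 libraries of it, 1 per condition. The OLFM4-wild library is labelled with the OLFM4-wild type genotype and the OLFM4-knockout library with the knockout genotype, and the last is labelled OLFM4-Active. They are called the wild, knockout and active-labelled libraries here. All were grown by ATCC's protocol for prostate epithelium. OLFM4 encodes a secreted olfactomedin-domain glycoprotein. Per the study's methods, GFP reporter cells were made by transfecting CRISPR/Cas9 activation or double-nickase knockout plasmids into RWPE1, kept as puromycin-selected stable lines, and sorted for GFP before RNA was taken. Those methods use the activation plasmids for the OLFM4-wild reporter cells and do not describe the library labelled OLFM4-active. The study speaks of cell clones, and no replicate shows how much such clones differ.

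Growth factor receptors activate RAS, RAF, MEK and ERK in turn, and ERK phosphorylates transcription factors that switch on a fast set of target genes. Several of those targets restrain the pathway: DUSP proteins remove the activating phosphates from ERK, and Sprouty and SPRED proteins act upstream, around RAS and RAF. Transcripts of these genes are widely used as a readout of ERK pathway output, and basal epithelial cells in culture, which depend on EGF, express many of them.

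The libraries held 16309906 counts (wild), 58837147 counts (knockout) and 23224216 counts (active-labelled). Library sizes behind the CPM values were scaled with TMM, a factor per library computed over all genes. Square brackets hold 95% Clopper-Pearson intervals, which cover counting error only, so every comparison is between libraries and no test between conditions was possible. OLFM4 itself stood at 11.8 CPM in the wild library, 2.55 CPM in the knockout library and 0.670 CPM, from 16 counts, in the active-labelled library. That last level was the lowest of the 3 and goes against the label, so the library is named by its label alone. The basal epithelial markers KRT5, KRT14, KRT15 and TP63 were all present, with a summed level of 16778 to 37575 CPM. Of the luminal markers, KLK3 had 2 counts in the wild library and 0 in both others, and TMPRSS2 had 1, 1 and 4 counts in the wild, knockout and active-labelled libraries. Leukocyte, endothelial and neuroendocrine markers, each list taken alone, summed to under 1 CPM in each library. Fibroblast markers, COL1A1 in the main, summed to 22.8 to 34.0 CPM. In bulk RNA, fewer cells that express a gene and less RNA per cell cannot be told apart.

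The summed level of the 10 genes was 258 CPM in the wild library, 374 CPM in the knockout library and 440 CPM in the active-labelled library (the level of each gene appears in the plot by library). Of the 10 genes, 8 were highest in the active-labelled library, where 27.5% of the 16600 genes were highest. For 6 of them, DUSP4, DUSP5, SPRY1, SPRED2, ETV4 and ETV5, the interval there was also clear of the intervals in both other libraries, against 11.9% of all genes. The exceptions were DUSP6, highest in the knockout library, and SPRY2, highest in the wild library. DUSP6 was 1 of 10 in the knockout library, where 41.9% of all genes were highest, and 23.9% with a clear interval as DUSP6 had. SPRY2 was 1 of 10 in the wild library, where 30.6% of all genes were highest, and 0 of 10 had a clear interval there, against 13.9%. With library totals in place of TMM the counts of 8, 1 and 1 were unaltered, beside 32.8%, 20.3% and 46.9% of all genes highest in the active-labelled, knockout and wild libraries.

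**Figure D1:**
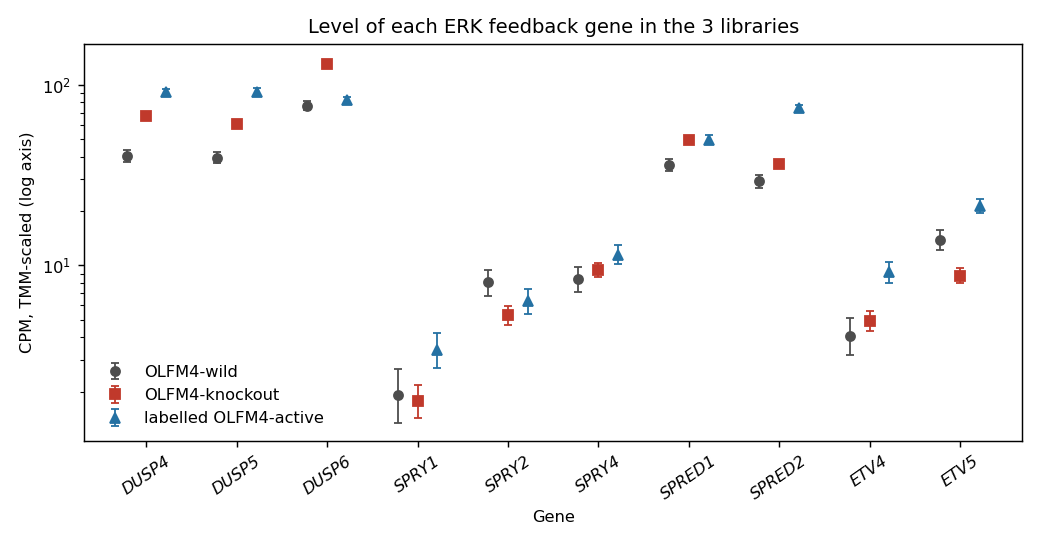
Level of each feedback gene in CPM (TMM-scaled, log axis) in the wild (grey circles), knockout (red squares) and active-labelled (blue triangles) libraries, with 1 library per group and bars for the 95% counting interval. The blue triangle is highest for 8 of the 10 genes, DUSP6 is highest in the knockout library at 130.3 CPM, and SPRY2 is highest in the wild library at 8.03 CPM.

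Promoter sequence is shown for 3 genes, 1 for each library that held the highest level: DUSP6 for the knockout library, SPRED2 for the active-labelled library and SPRY2 for the wild library. ETS factors, the class to which ETV4 and ETV5 belong, bind sites built on the letters GGAA, and capitals mark every GGAA or its complement TTCC. The stretches end just before the outermost annotated start, run 5′ to 3′ on the gene's strand, which is minus for all 3, and come from RefSeq on GRCh38.p14 at chr12:89352502-89352751, chr2:65432638-65432849 and chr13:80341127-80341376.
DUSP6: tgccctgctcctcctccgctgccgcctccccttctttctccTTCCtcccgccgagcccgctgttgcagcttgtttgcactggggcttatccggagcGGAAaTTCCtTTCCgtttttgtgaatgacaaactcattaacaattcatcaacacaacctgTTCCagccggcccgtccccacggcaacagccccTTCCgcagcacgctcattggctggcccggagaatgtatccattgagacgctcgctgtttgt
SPRED2: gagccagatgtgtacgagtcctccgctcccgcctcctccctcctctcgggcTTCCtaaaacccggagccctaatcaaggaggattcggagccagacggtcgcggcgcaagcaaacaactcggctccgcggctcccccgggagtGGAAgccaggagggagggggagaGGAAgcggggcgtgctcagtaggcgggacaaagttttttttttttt
SPRY2: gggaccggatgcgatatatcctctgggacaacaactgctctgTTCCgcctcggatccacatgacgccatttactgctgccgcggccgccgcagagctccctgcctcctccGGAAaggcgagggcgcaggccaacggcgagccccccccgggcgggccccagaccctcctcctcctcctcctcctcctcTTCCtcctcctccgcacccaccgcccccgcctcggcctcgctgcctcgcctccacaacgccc

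The DUSP6 stretch held these letters 6 times. Of 35116 promoters in the reference, each read over 250 bases before a start, 9.14% held them at least as often, the median was 3 and 92.7% held them at least once. The SPRY2 stretch held them 3 times, where 55.1% of promoters held as many or more. The SPRED2 stretch is shorter, 212 bases, since it stops where the gene annotation begins. It held them 3 times, and the whole window of 250 bases 4 times, where 34.3% of promoters held as many or more. The longer ETS letters CCGGAA, searched on both strands together with the AP-1 letters TGANTCA, the CRE letters TGACGTCA and the E-box letters CACGTG, were found in 2 of 10 windows of the feedback genes, each also the 250 bases before a start, against 14.5% of all promoters. Those were 142 bases before the SPRY2 start shown, where they overlap a capitalised GGAA, and 67 bases before an inner start of SPRY1. The AP-1, CRE and E-box letters were in 0 of the 10 windows, against 6.57%, 1.65% and 6.34% of all promoters. The 10 windows covered 6 of the 10 genes, and DUSP4, DUSP5, ETV4 and ETV5 had no entry.

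DUSP6 and DUSP5 had the highest levels of the 10 per exon length in every library (the order by length is given after the single genes). DUSP6, on chromosome 12 from 89347235 to 89352501 (minus strand), encodes a cytoplasmic phosphatase selective for ERK. It had 1393 counts in the wild library, 6689 in the knockout library and 1954 in the active-labelled library, or 76.7 [72.7 to 80.8], 130.3 [127 to 133] and 81.8 [78.2 to 85.5] CPM. It was thus the single gene of the 10 whose level was highest in the knockout library, with the other 2 libraries close to each other. The DUSP6 level was 1.70-fold higher in the knockout than in the wild library, a log2 fold change of 0.76 [0.68 to 0.85]. The log2 fold change of DUSP6 was 0.09 [-0.01 to 0.19] in the active-labelled over the wild library, and turned to -0.02 with library totals in place of TMM.

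A lncRNA on the opposite strand, ENSG00000274021, shares 1105 exon bases with DUSP6. It had 24.1, 31.4 and 21.6 counts per 100 DUSP6 counts in the wild, knockout and active-labelled libraries, and its log2 fold changes against the wild library were 1.14 [0.98 to 1.32] and -0.07 [-0.28 to 0.14]. The lncRNA was therefore also highest in the knockout library. Counting used strand, and how far reads of one gene reached the other was not tested.

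DUSP5, on chromosome 10 from 110497907 to 110511533 (plus strand), encodes a nuclear phosphatase selective for ERK. It had 718, 3109 and 2183 counts in the wild, knockout and active-labelled libraries, or 39.5 [36.7 to 42.5], 60.6 [58.5 to 62.7] and 91.4 [87.6 to 95.3] CPM. The 3 intervals did not overlap, and the knockout library lay between the others. The annotation names 2 pseudogenes of DUSP5, and their part in its counts was not tested.

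DUSP4, on chromosome 8 from 29333064 to 29350684 (minus strand), encodes an inducible nuclear phosphatase that acts on ERK and on other MAP kinases. Its 734, 3443 and 2181 counts in the same order gave 40.4 [37.5 to 43.4], 67.1 [64.8 to 69.3] and 91.3 [87.5 to 95.2] CPM, the same order of libraries as DUSP5. Against the wild library, DUSP4 was 1.66-fold and DUSP5 1.53-fold higher in the knockout library, and 2.26-fold and 2.31-fold higher in the active-labelled library.

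The make-up of the 3 phosphatase transcripts was also compared within each library, as shares of their counts, a measure that library scaling cannot alter. DUSP6 took 49.0% [47.1 to 50.8] of their counts in the wild library and 50.5% [49.7 to 51.4] in the knockout library, but 30.9% [29.8 to 32.1] in the active-labelled library. DUSP4 and DUSP5 took 25.8% and 25.2% in the wild library, and 34.5% and 34.6% in the active-labelled library. For each of the 3 genes the intervals of the wild and knockout libraries overlapped, and that of the active-labelled library was apart from both.

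The Sprouty genes encode cytoplasmic and membrane-associated inhibitors that act between receptor tyrosine kinases and ERK. SPRY2, on chromosome 13 from 80335976 to 80341126 (minus strand), had 146 counts in the wild library, 271 in the knockout library and 151 in the active-labelled library, or 8.03 [6.78 to 9.45], 5.28 [4.67 to 5.95] and 6.32 [5.35 to 7.41] CPM. It was the single gene of the 10 with its highest level in the wild library, though that interval overlapped the one of the active-labelled library. The log2 fold change of SPRY2 was -0.61 [-0.90 to -0.31] in the knockout and -0.35 [-0.68 to -0.01] in the active-labelled library, each against the wild library.

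SPRY4, on chromosome 5 from 142310427 to 142326455 (minus strand), had 152, 483 and 274 counts, or 8.37, 9.41 and 11.5 CPM, in the wild, knockout and active-labelled libraries. Its interval in the knockout library overlapped both others, which did not overlap each other. The log2 fold change of SPRY4 in the knockout over the wild library was 0.17 [-0.10 to 0.44], not detectable as a difference at this depth, and -0.19 with library totals. In the active-labelled over the wild library it was 0.45 [0.16 to 0.75].

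SPRY1, on chromosome 4 from 123396795 to 123403760 (plus strand), had 35, 91 and 81 counts in the same order, or 1.93 [1.34 to 2.68], 1.77 [1.43 to 2.18] and 3.39 [2.69 to 4.21] CPM. It was higher in the active-labelled library than in both others, whose intervals overlapped. With so few counts, the interval of the log2 fold change of SPRY1 in the knockout over the wild library ran from -0.70 to 0.49 around -0.13. Within the family, SPRY2 took 43.8% [38.4 to 49.4] of the SPRY1, SPRY2 and SPRY4 counts in the wild library, 32.1% [28.9 to 35.3] in the knockout library and 29.8% [25.9 to 34.0] in the active-labelled library. SPRY4 took 45.6%, 57.2% and 54.2% in the same order, so the shares of SPRY2 and SPRY4 overlapped within counting error in the wild library and were apart in both others.

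SPRED1 and SPRED2 encode membrane-associated proteins that block activation of RAF by RAS, in part by bringing neurofibromin, the RAS-inactivating product of NF1, to the membrane. SPRED2, on chromosome 2 from 65310851 to 65432637 (minus strand), had 529 counts in the wild library, 1872 in the knockout library and 1765 in the active-labelled library, or 29.1 [26.7 to 31.7], 36.5 [34.8 to 38.2] and 73.9 [70.5 to 77.4] CPM. The last was 2.54-fold the wild level, a log2 fold change of 1.34 [1.20 to 1.49] and the highest of the 10 genes in that comparison. In the knockout over the wild library the log2 fold change of SPRED2 was 0.32 [0.18 to 0.47] with TMM and -0.03 with library totals.

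SPRED1, on chromosome 15 from 38252836 to 38357249 (plus strand), had 654, 2546 and 1187 counts in the same order, or 36.0 [33.3 to 38.9], 49.6 [47.7 to 51.6] and 49.7 [46.9 to 52.6] CPM. The knockout library and the active-labelled library thus held nearly the same SPRED1 level, and the interval of their log2 fold change ran from -0.10 to 0.10, though the value was -0.24 with library totals. Of the counts of both SPRED genes, SPRED2 took 44.7% [41.9 to 47.6], 42.4% [40.9 to 43.8] and 59.8% [58.0 to 61.6] in the wild, knockout and active-labelled libraries. SPRED1 thus took the larger share of counts in the first and second of these libraries and SPRED2 in the last.

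ETV4 and ETV5 encode ETS transcription factors whose genes the repressor CIC holds down until ERK relieves it. ETV4, on chromosome 17 from 43527844 to 43579620 (minus strand), had 74, 252 and 219 counts, or 4.07 [3.20 to 5.11], 4.91 [4.32 to 5.55] and 9.17 [7.99 to 10.5] CPM, in the wild, knockout and active-labelled libraries. ETV4 was 2.24-fold higher in the active-labelled library than in the wild library, a log2 fold change of 1.16 [0.78 to 1.57]. In the knockout over the wild library the log2 fold change of ETV4 was 0.26 [-0.11 to 0.66], and -0.09 with library totals, so no difference was detectable. DHX8 shares 68 exon bases with ETV4 on the opposite strand and held 1391, 3877 and 1698 counts, or 1880, 1538 and 775 per 100 ETV4 counts. Whether reads of DHX8 reached the ETV4 counts was not tested.

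ETV5, on chromosome 3 from 186046314 to 186110318 (minus strand), had 251, 450 and 510 counts in the same order, or 13.8 [12.2 to 15.6], 8.77 [7.97 to 9.61] and 21.3 [19.5 to 23.3] CPM. The 3 intervals did not overlap, and the knockout library was lowest. ETV5 was the one gene of the 10 with intervals on opposite sides of 0 against the wild library: its log2 fold change was -0.66 [-0.88 to -0.43] in the knockout library and 0.63 [0.41 to 0.85] in the active-labelled library. ETV4 accordingly took 22.8% [18.3 to 27.7] of the counts of both genes in the wild library, 35.9% [32.3 to 39.6] in the knockout library and 30.0% [26.7 to 33.5] in the active-labelled library. DGKG shares 164 exon bases with ETV5 on the same strand and held 23, 18 and 7 counts.

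**Figure D2:**
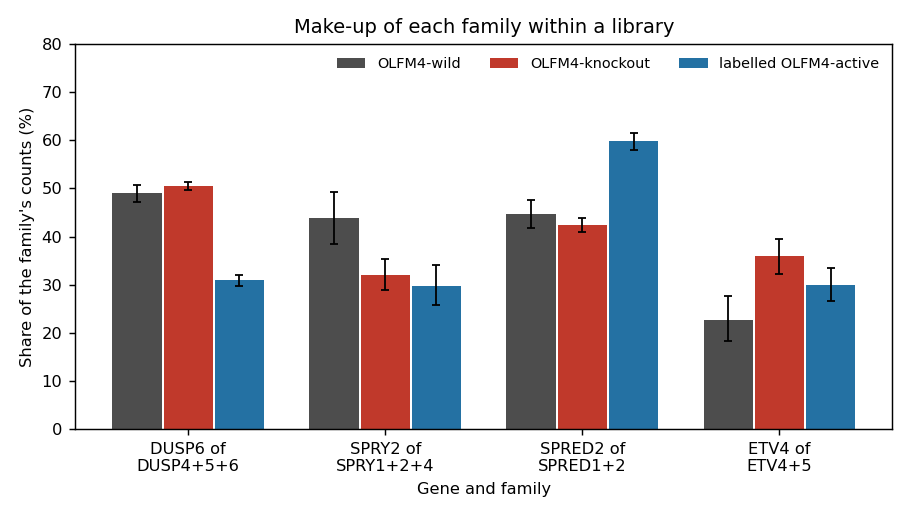
Share of a family's counts taken by 1 gene in each library (percent, axis from 0), for DUSP6, SPRY2, SPRED2 and ETV4, with bars for the 95% counting interval and 1 library per group. In the active-labelled library (blue) DUSP6 took 30.9% and SPRED2 59.8%, apart from both other libraries, SPRY2 at 43.8% stood apart in the wild library (grey), and the ETV4 interval in grey overlapped that in blue but not that in red (knockout).

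To set the genes against each other, levels were divided by exon length, in CPM per kilobase of all annotated exons of a gene, and the isoforms in use were not tested. In the wild library the order was DUSP6 at 19.9, DUSP5 at 15.6, DUSP4 at 5.55, SPRED2 at 5.29, SPRED1 at 4.64, SPRY2 at 2.50, ETV5 at 2.39, SPRY4 at 1.28, ETV4 at 1.16 and SPRY1 at 0.486 CPM per kilobase. The intervals of the neighbours DUSP4 and SPRED2, SPRED2 and SPRED1, SPRY2 and ETV5, and SPRY4 and ETV4 overlapped. The order was the same in the knockout library, from DUSP6 at 33.8 to SPRY1 at 0.447 CPM per kilobase, where SPRY2, ETV5, SPRY4 and ETV4 formed a run of overlapping neighbours between 1.64 and 1.40, and SPRED2 and SPRED1 overlapped as well. In the active-labelled library the order differed. DUSP5 led at 36.0 CPM per kilobase, above DUSP6 at 21.2, and was followed by SPRED2 at 13.4, DUSP4 at 12.6, SPRED1 at 6.41, ETV5 at 3.70, ETV4 at 2.61, SPRY2 at 1.97, SPRY4 at 1.75 and SPRY1 at 0.855. There the overlapping neighbours were SPRED2 and DUSP4, ETV4 and SPRY2, and SPRY2 and SPRY4. Among 12795 protein-coding genes in the wild library, DUSP6 lay at percentile 88.0 and SPRY1 at percentile 5.55 of the level per kilobase.

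The knockout over the wild library is the comparison named first in the study's design. In it the 3 DUSP genes stood highest of the 10, with log2 fold changes of 0.62 to 0.76, and SPRY2 and ETV5 lowest, at -0.61 and -0.66. Past a 2-fold difference, 0 of the 10 were higher, where 5.77% of all genes were, and 0 were lower, where 7.56% were. The counting interval lay above 0 for 5 genes (DUSP4, DUSP5, DUSP6, SPRED1 and SPRED2) and below 0 for 2 (SPRY2 and ETV5), where 42.4% of all genes lay above and 29.8% below. At a log2 fold change of 0.58 the background shares were 19.4% higher and 16% lower, beside the 3 and 2 of the 10 genes. The median of the 10 log2 fold changes was 0.29, against 0.10 for all genes. Library totals in place of TMM lowered every log2 fold change in this comparison by 0.35 and gave medians of -0.06 and -0.26, leaving 3 intervals above 0 and 2 below, where 21% and 52.4% of all genes lay above and below. Past 2-fold with library totals, 0 of the 10 were higher and 1 lower, ETV5 at -1.01, where 2.22% and 13.9% of all genes were. SPRY4, SPRED2 and ETV4 changed sign with it. The median of the 10 lay 0.20 above that of all genes with either scaling, a gap that a shift common to all genes cannot alter. The summed basal markers also differed here, from 16778 to 37575 CPM, with 3 of the 4 past 2-fold higher (1 of the 4, KRT15, with library totals), and their part in these values was not tested.

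In the active-labelled over the wild library, the median of the 10 lay further from that of all genes. Past 2-fold, 4 of the 10 genes were higher (DUSP4, DUSP5, SPRED2 and ETV4), where 3.78% of all genes were, and 0 were lower, where 6.73% were. Their log2 fold changes lay between 1.16 and 1.34, at percentiles 97.4 to 98.3 of all genes. SPRY1 at 0.80 and ETV5 at 0.63 came next. The interval lay above 0 for 8 genes and below 0 for SPRY2, where 35.2% and 28.1% of all genes lay above and below, and included 0 for DUSP6. With library totals these counts were 8 and 1, beside 26.3% and 36.2% of all genes. Past a log2 fold change of 0.58, 6 of the 10 were higher and 0 lower, where 12.5% and 14.7% of all genes were. The median of the 10 was 0.72, against 0.05 for all genes, and with library totals, which lowered each value by 0.11, the medians were 0.60 and -0.07. The same 4 genes were past 2-fold higher with library totals and 0 were lower, where 2.89% and 8.36% of all genes were. The summed basal markers were 16778 CPM and 19775 CPM in these libraries, with 0 of 4 past 2-fold, and the fibroblast markers 34.0 CPM and 22.8 CPM, with DCN at 0 in the active-labelled library. Both comparisons share the wild library, so its counting error, and anything particular to that library, enters both.

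**Figure D3:**
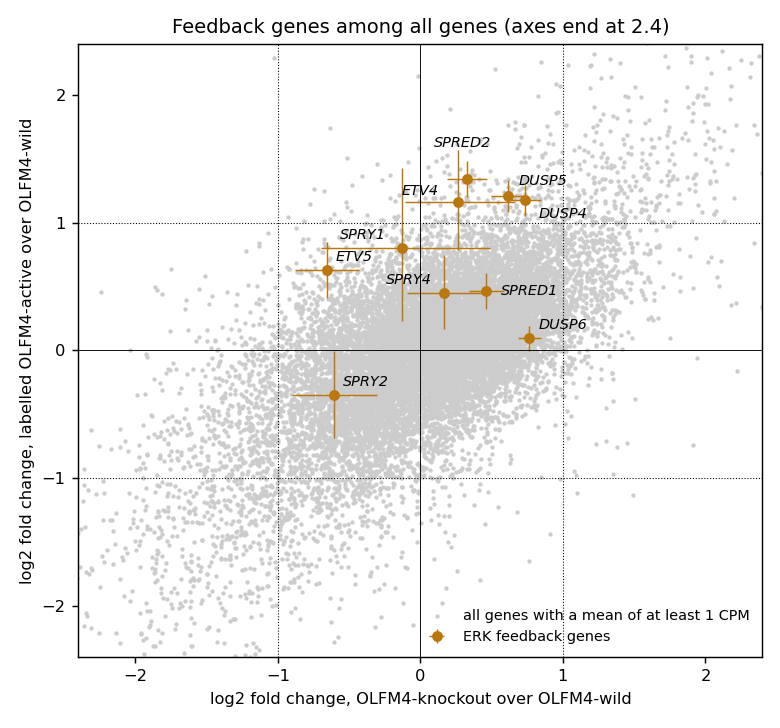
Log2 fold change of each gene in the knockout (x axis) and the active-labelled library (y axis) against the same wild library, with 1 library per group, for 16600 genes (grey; 296 lie outside the axes) and the 10 feedback genes (orange, bars for the 95% counting interval). DUSP4, DUSP5, SPRED2 and ETV4 lie above the dotted line of 1 on the y axis, none of the 10 passes 1 or -1 on the x axis with the TMM scaling plotted (ETV5 is at -1.01 with library totals), and ETV5 lies left of 0 and above 0.

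Set directly against each other, the knockout library was lower than the active-labelled library for most of the genes. Past 2-fold, SPRED2 at -1.02 [-1.11 to -0.92] and ETV5 at -1.28 [-1.47 to -1.10] were lower, 2 of 10 where 3.39% of all genes were, and 0 were higher, where 2.95% were. SPRY1 at -0.94 [-1.38 to -0.49] and ETV4 at -0.90 [-1.17 to -0.63] were just inside that limit, and passed it with library totals, which lowered each value by 0.24. That made 4 of 10 lower and 0 higher, where 6.84% and 1.28% of all genes were. Past 0.58, 5 of the 10 were lower and 1 higher, where 11.1% and 14.3% of all genes were. The interval lay below 0 for 7 genes, where 28% of all genes did, and above 0 for DUSP6 alone, at 0.67 [0.60 to 0.75], where 39.8% did. With library totals it lay below 0 for 9 genes and above 0 for 1, against 46.1% and 22.5% of all genes. The median was -0.52, against 0.08 for all genes. For ETV5, 1.34% of all genes had a lower or equal log2 fold change, and for DUSP6 the percentile was 89.8.

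The rest of the pathway did not follow one direction (the plot by gene list shows every gene). Of 10 relatives of these genes, 8 had a mean of 1 CPM or more, of which 2 were past 2-fold higher and 3 lower in the knockout over the wild library, and their median log2 fold change was -0.11 in the knockout and -0.07 in the active-labelled over the wild library. With library totals 1 was past 2-fold higher and 3 lower in the knockout over the wild library, with a median of -0.46. Of all genes in that comparison, 5.77% were past 2-fold higher and 7.56% lower, or 2.22% and 13.9% with library totals. The median of all genes, also for the lists below, was 0.10, or -0.26 with library totals. The phosphatases split: DUSP2 at 1.45, DUSP9 at 1.35 and DUSP1 at 0.84 were highest in the knockout over the wild library, and DUSP10 at -1.82, DUSP8 at -1.46 and DUSP16 at -1.26 lowest. DUSP10 and DUSP16, like DUSP8, act mainly on the stress kinases JNK and p38 rather than on ERK. These 3 were also more than 2-fold lower in the active-labelled library, where 6.73% of all genes were, at -1.61, -1.52 and -1.26 for DUSP10, DUSP8 and DUSP16. DUSP7 was the 1 relative past 2-fold higher there, at 1.07 [0.95 to 1.20], where 3.78% of all genes were. With library totals DUSP7 was at 0.96, so 0 relatives were past 2-fold higher and 3 lower, where 2.89% and 8.36% of all genes were. SPRY3 and ETV1 were below 1 CPM on average.

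Of 21 genes of the RAS to ERK cascade, 0 were past 2-fold higher and 3 past 2-fold lower in the knockout over the wild library, with a median of -0.02 (0, 5 and -0.37 with library totals). The shares of all genes were 5.77% higher and 7.56% lower, or 2.22% and 13.9% with library totals. The 3 cascade genes past 2-fold lower with TMM were SOS1 at -1.04, which loads RAS with GTP, the scaffold gene KSR1 at -1.02 and the adaptor gene GAB1 at -1.01. MAP2K2 at 0.95, HRAS at 0.83 and SHC1 at 0.64 were highest. MAPK3, which encodes ERK1, stood at -0.09 [-0.24 to 0.07], or -0.44 with library totals. In the active-labelled library the cascade's median was 0.17, with MAPK3 at -0.38.

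Of 14 other genes induced by ERK, 13 reached the level of 1 CPM, and 4 were past 2-fold higher and 1 lower in the knockout over the wild library, with a median of 0.68. With library totals 2 were past 2-fold higher (FOSL1 and FOS) and 1 lower, with a median of 0.33. Beside these, 5.77% of all genes were past 2-fold higher and 7.56% lower, or 2.22% and 13.9% with library totals. FOSL1, an AP-1 subunit, had 212, 2336 and 2022 counts in the wild, knockout and active-labelled libraries, and its log2 fold changes were 1.96 [1.76 to 2.17] and 2.86 [2.65 to 3.07]. FOS at 1.60 and EPHA2 at 1.16 followed in the knockout library, with 1.03 and 0.83 in the active-labelled library, and CCND1 at 1.07 was the other gene past 2-fold higher. EPHA4 at -1.31, EGR1 at -0.63 and ERRFI1 at -0.59 were lowest. ERRFI1 encodes an inhibitor of EGFR, and EGR1 an immediate early factor that stood at 0.34 in the active-labelled library. MYC stood at 0.90 and 0.83. The median in the active-labelled library was 0.36, or 0.24 with library totals.

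Among 16 genes for EGF and FGF family receptors, MET and EGF family ligands, 13 reached 1 CPM, and 4 were past 2-fold higher and 0 lower in the knockout over the wild library, with a median of 0.57. With library totals 1 was past 2-fold higher, EREG, and 0 lower, with a median of 0.21. Over all genes the shares were 5.77% higher and 7.56% lower, or 2.22% and 13.9% with library totals. EREG, which encodes the EGFR ligand epiregulin, had 403, 5547 and 3565 counts, and log2 fold changes of 2.28 [2.14 to 2.43] and 2.75 [2.60 to 2.90]. FGFR4 at 1.07, EPGN at 1.03 and TGFA at 1.01 were next in the knockout library, and ERBB3 at -0.58, FGFR1 at -0.40 and EGFR at -0.26 were lowest. EGFR was at 2086, 1744 and 2365 CPM in the wild, knockout and active-labelled libraries.

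The 11 nuclear factors that ERK acts on or that hold down its targets had a median of -0.49 in the knockout and 0.27 in the active-labelled over the wild library, or -0.85 and 0.15 with library totals. CIC, the repressor of ETV4, ETV5 and other genes of this set, had 102, 64.5 and 78.2 CPM in the wild, knockout and active-labelled libraries, and log2 fold changes of -0.67 [-0.75 to -0.58] and -0.39 [-0.48 to -0.30]. ATXN1, which encodes a partner of CIC, stood at -0.64 and 0.49. ETS2, an ETS factor that ERK phosphorylates, was the one factor past 2-fold with TMM, at -1.45 and -1.23. With library totals CIC also passed in the knockout library, at -1.02. The share of all genes past 2-fold lower in the knockout library was 7.56% with TMM and 13.9% with library totals. In the active-labelled library it was 6.73% with TMM. SRF at 0.62, ERF at 0.42 and ELK1 at 0.41 were highest in the knockout library.

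**Figure D4:**
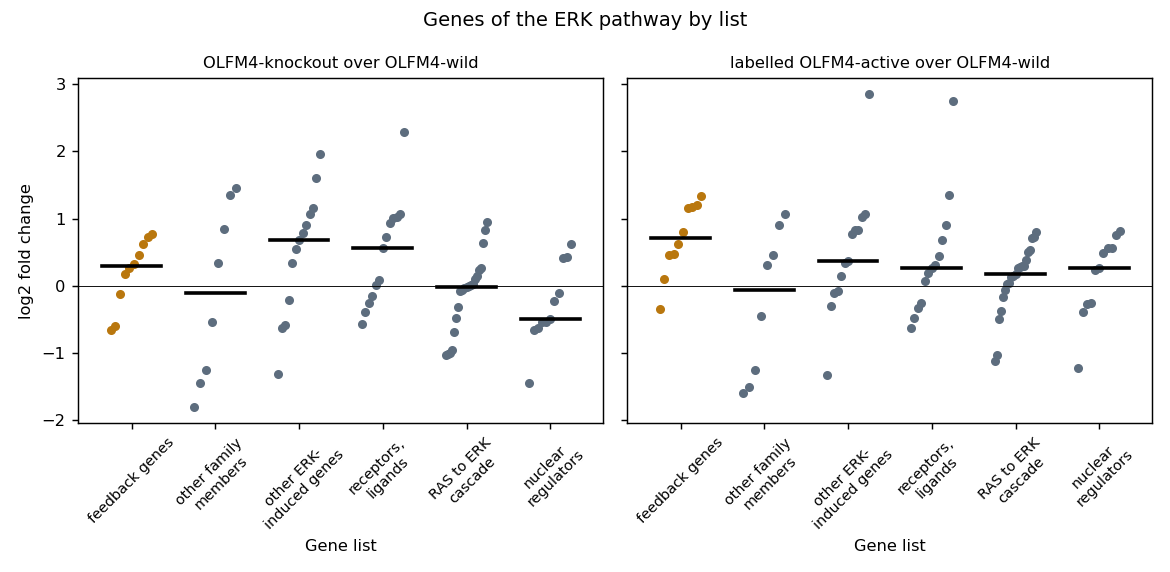
Log2 fold change of each gene at or above a mean of 1 CPM, by list (feedback genes in orange, others in grey), in the knockout library (left) and the active-labelled library (right) against the same wild library, with 1 library per group and black lines for the medians. The feedback genes have a median of 0.29 on the left (-0.06 with library totals) and 0.72 on the right, and the other ERK-induced genes 0.68 (0.33 with library totals) and 0.36.

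SPRED2 was the feedback gene of at least 10 CPM whose level ranged widest over the libraries, and the genes with the most similar pair of log2 fold changes against the wild library were sought among 9661 protein-coding genes of at least 10 CPM. By Euclidean distance they were MAGOH at 0.049, TAF13 at 0.088, FAM98A at 0.093, TNS4 at 0.13 and NT5DC3 at 0.13. MAGOH had 9.36, 12.1 and 23.4 CPM in the wild, knockout and active-labelled libraries, and TNS4 had 286, 389 and 706 CPM. The likeness rests on 3 libraries and so on 2 numbers per gene.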

How the data were processed

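The authors aligned paired-end reads of stranded, ribosome-depleted total RNA to GRCh38 with HISAT2, counted uniquely mapped, reversely stranded pairs per gene with featureCounts, and deposited whole-number counts without normalization, 1 column for each of the 3 libraries. The annotation release they used is not given in the sources used here. Counting unique reads can lower genes with near-identical copies. Copies of genes in the Y pseudoautosomal regions, at 0 throughout, were dropped.

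Here, library sizes were scaled with TMM factors (1.11, 0.872 and 1.03 for wild, knockout and active-labelled) from edgeR 4.0.16 in R 4.3.3, and log2 fold changes used an offset of 0.5 counts as in voom of limma 3.58.1. Positions and exon lengths came from GENCODE 44, in which 56948 of 57992 identifiers matched. A floor of 3 counts is 0.165, 0.0584 and 0.126 CPM in the same order. Intervals are 95% Clopper-Pearson intervals, conditional on the pair's sum for fold changes. With 1 library per group no test was made: genes were counted past a log2 fold change of 1 (2-fold) or -1 among those with a mean of at least 1 CPM. Python 3.11.15, numpy 2.4.6, pandas 2.3.3, scipy 1.17.1 and matplotlib 3.10.9 were used, and the procedure was tested on simulated data.

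The text names all 10 genes, the 3 highest and 3 lowest of each other list in the knockout over the wild library, CIC, MAPK3, EGFR and MYC, OLFM4, markers, genes sharing exons with one of the 10, and the 5 genes nearest to SPRED2. Some results that fall under this are not reported here. The genes and lists were chosen with earlier results of these data known. The shares within families, the count of genes highest in a library, the GGAA letters, the promoters shown, DUSP7, CCND1 and TGFA were chosen after the values were seen. Alternatives were library totals, DESeq2 1.42.0 size factors, upper quartile factors, library sizes without the 10 most abundant genes of each library, an offset of 5 counts, thinning to the smallest library, centring on genes of similar length, filters at 10 CPM or none, and a limit of 0.58. TMM without the active-labelled library was added after seeing the data.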

Additional observations from a re-analysis of the deposited data

How the results depend on the processing

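In the active-labelled over the wild library, the count past 2-fold was 4 under every alternative that kept all 10 genes and the limit of 1, and was 3 with a mean of at least 10 CPM and 6 at a limit of 0.58. For the knockout over the wild library, the count of 0 became 1 with library totals (ETV5, at -1.01) and 5 at 0.58. Its median of 0.29 became -0.059 with library totals and 0.54 with a mean of at least 10 CPM, which leaves fewer genes. An alternative added after seeing the data, TMM factors without the active-labelled library, gave 0 and 0.34. For the knockout library against the active-labelled one, the count of 2 became 4 with library totals, 4 with upper quartile factors, 4 after thinning, 4 after centring on gene length and 6 at 0.58, and its median of -0.52 became -0.76 with library totals, -0.62 with upper quartile factors and -0.66 after centring on gene length. Apart from library totals, upper quartile factors and centring, which shift values by construction, the cause of these moves was not tested. Of the 30 log2 fold changes of single genes, 16 left their counting interval with library totals, 6 with upper quartile factors, 4 after centring on gene length and 2 after thinning, and 0 with DESeq2 size factors, the offset of 5 counts or without the most abundant genes.

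No paired analysis was possible because each group has 1 library, and leaving out each library in turn was not run for the same reason. The wild library is the shallowest, and SPRY1 and ETV4 rest there on 35 and 74 counts. Differences between lines, cultures or preparations cannot be told apart from those between conditions.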
